A study of Mus musculus with 9 samples.

Results

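The comparison set WT1-intermediate activated hepatic stellate cells, taken from chronically injured livers, against WT1-negative activated hepatic stellate cells that had been activated in culture. It used 6 of the 9 arrays in the series, chosen by their labels alone (GFP low and activated in vivo, or GFP negative and activated in vitro), with 3 arrays in each group and every probe considered. Both groups came from C57/Bl6 mice of genotype WT1GFP/+, in which GFP was knocked into 1 copy of the Wt1 gene and reports its expression, and the labels give all animals as male (the methods allow either sex for cultures). WT1-intermediate cells were isolated from adult mice given repeated intraperitoneal carbon tetrachloride, a hepatotoxin that kills pericentral hepatocytes and causes fibrosis. WT1-negative cells began as quiescent stellate cells of uninjured mice and spent 7 days on plastic. In both, cells were purified by density centrifugation and sorted on GFP straight into lysis buffer, so each array averages a gated population. The methods give 3 injured animals, which also supplied the 3 WT1-high arrays of the series. The labels number the last pair of arrays differently (29 and 30), although their column headers both carry 29. Cell origin, WT1 status and the exported table in which each array was deposited changed together, and their contributions cannot be told apart. Wt1 itself was not analysed here.

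Hepatic stellate cells are the vitamin A-storing pericytes of the liver sinusoid. After injury, or when placed on plastic, they lose their lipid droplets, divide, acquire contractile filaments and lay down the collagens of scar tissue, at which point they are called activated. WT1 is a zinc finger transcription factor of the embryonic coelomic lining, and in adults it marks mesothelium, the keratin-containing sheet that covers the liver and other organs and shares a developmental origin with stellate cells.

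The arrays were Illumina beadchips with 45281 gene probes, and levels are given throughout as log2 normalised intensity. Between 17484 and 19445 probes were detected on each of the 6 arrays, and the 3 WT1-intermediate arrays were dimmer as scanned (mean intensity 184, 221 and 147 for replicates 1, 8 and 30) than the 3 WT1-negative arrays (250.3, 246 and 256 for replicates 3, 11 and 14). Values of each gene are given in that order of replicates. Root mean square log2 distances between arrays were 1.11 to 1.27 across the 2 groups, compared with 0.436 to 0.468 among WT1-intermediate arrays and 0.264 to 0.404 among WT1-negative arrays. By limma, 11935 of 20573 probes kept passed an adjusted p of 0.05 (58.0%), and 57.9% of those were lower in WT1-intermediate cells, a share of 76.9% with median scaling over every gene probe and 48.8% with cyclic loess. With each gene taken by its brightest probe, 3800 of 14659 genes were higher in WT1-intermediate cells (25.9%) and 4692 were lower (32.0%). The 3 arrays of one group lay wholly above or below the 3 of the other for 65.7% of genes. A number in parentheses after a gene's name is its log2 difference, WT1-intermediate minus WT1-negative, or, for a gene undetected throughout the dimmer group, a lower bound on the fold. Since a probe detected on any 3 of the 9 arrays was kept, a gene could pass through the group in which it was bright, and counts over lists describe the members that passed.

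Larger differences lay mostly on the higher side. At 4-fold or more, 852 genes were higher and 340 lower, and at 16-fold or more the counts were 143 and 22. In WT1-intermediate cells 874 genes were detected on 3 of 3 arrays and on none of the WT1-negative arrays, while 487 genes showed the reverse. Among the 9877 genes detected on all 6 arrays, 2425 were higher and 3493 lower. The median log2 difference over probes was -0.13, a shift that became -0.01 with median scaling, -0.01 with cyclic loess and -0.44 with median scaling over every gene probe, so small differences depend on the scaling. In bulk samples such as these, fewer cells of a type and less RNA per cell cannot be told apart.

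**Figure D1:**
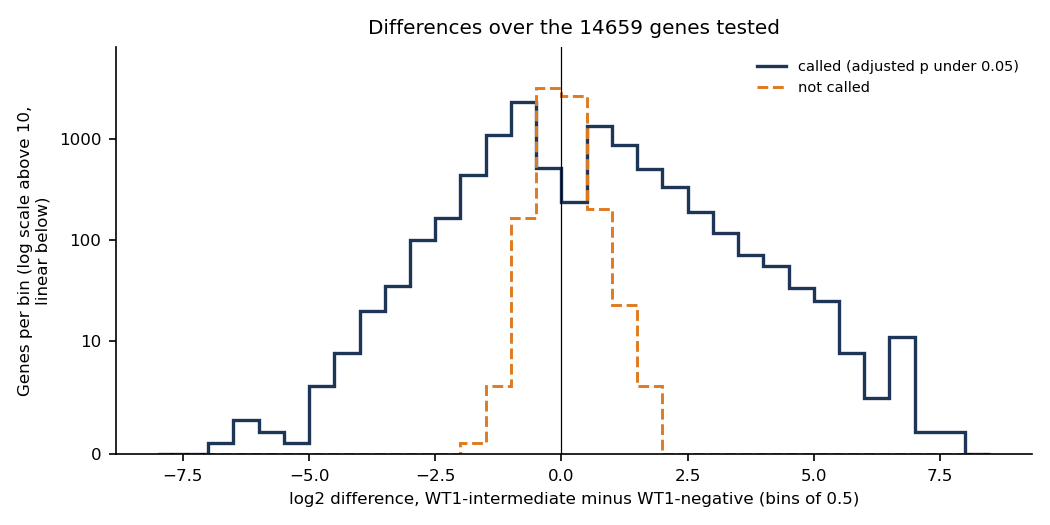
Histogram of log2 differences (WT1-intermediate minus WT1-negative, bins of 0.5, horizontal axis) over 14659 genes, with the number of genes per bin on the vertical axis (linear below 10, logarithmic above). The solid line is genes called by limma and the dashed line genes not called, and the called genes reach further to the right (highest 7.97) than to the left (lowest -6.92).

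The largest rises were of secreted and epithelial genes. Prg4, which encodes the lubricating proteoglycan lubricin, read 12.16, 12.26 and 12.39 on the WT1-intermediate arrays and 4.30, 4.31 and 4.28 on the WT1-negative arrays, where it was not detected, and so was at least 203-fold higher (7.97 ± 0.14, adjusted p = 4.44e-11; errors of log2 differences are SE throughout, n = 3 a group). Dmkn, a secreted epithelial protein, read 11.74, 12.41 and 12.21 against 4.24, 4.25 and 4.25, at least 183-fold higher. Krt14, a keratin of basal epithelium, read 11.15, 11.61 and 12.12 against 4.38, 4.32 and 4.31, at least 130.2-fold higher. Each of these genes was bright on all 3 WT1-intermediate arrays and at background on all 3 WT1-negative arrays. Dpt (dermatopontin, a collagen-binding matrix protein) read 11.03, 11.17 and 11.65 against 4.43, 4.33 and 4.32, and Inmt (a methyltransferase of indoles and amines) read 11.26, 11.06 and 11.42 against 4.35, 4.30 and 4.34. The remaining 5 of the 10 largest rises were Rarres2 (7.06), H2-Aa (at least 101-fold), Upk1b (6.97), Cfb (6.87) and Gpm6a (at least 90.9-fold). One of the 3 Rarres2 probes was called in the opposite direction (-0.78).

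The largest falls joined skeletal muscle genes, macrophage genes and a growth factor locus. Myl1, a fast-twitch myosin light chain, read 4.33, 4.47 and 4.47 on WT1-intermediate arrays and 11.04, 11.63 and 11.36 on WT1-negative arrays, and so was at least 111-fold lower (-6.92 ± 0.16, adjusted p = 3.55e-10). Acta1, the actin of skeletal muscle, read 4.34, 4.21 and 4.28 against 10.44, 11.28 and 10.59, at least 74-fold lower. Fcrls, an Fc receptor-like scavenger receptor of macrophages and microglia, read 5.43, 5.14 and 5.71 against 11.43, 12.18 and 11.95. The WT1-negative arrays were the bright ones for all 3 genes and no array crossed over. Tnnc1 (-6.25), Mylpf (at least 53.8-fold), Myl4 (-5.81) and Actc1 (at least 22.2-fold) extended the muscle group. The array entry Msr2, a macrophage scavenger receptor, differed by -4.97 on the log2 scale and was detected on 2 of 3 WT1-intermediate arrays. Entries were counted by symbol, and Msr2 may name the same gene as Fcrls. H19 and Igf2, neighbouring imprinted genes, completed the 10 largest falls.

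**Figure D2:**
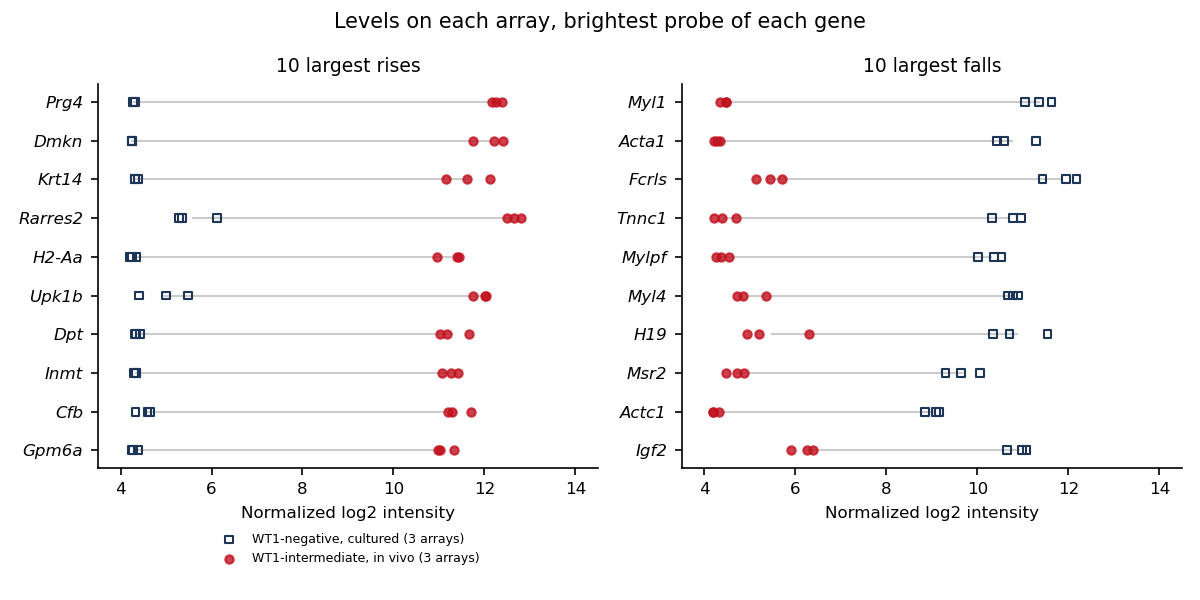
Log2 normalised intensity (horizontal axis) of the 10 genes that rose most and the 10 that fell most in WT1-intermediate against WT1-negative cells, with 1 point per array and groups by colour. In all 20 genes the 3 arrays of one group lie apart from the 3 of the other, as from 12.16 to 12.39 against 4.28 to 4.31 for Prg4.

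Mesothelial and epithelial genes were high in WT1-intermediate cells as a group. Of 16 mesothelial genes tested (17 were on the array), 15 were higher and 0 lower, with a median log2 difference of 6.27 (6.06 with undetected genes at their bound), beside 25.9% higher and a median of -0.10 over all genes. Of the 5 members detected on all 6 arrays 4 were higher. Their summed intensity was 38069 to 45588 on the WT1-intermediate arrays and 456 to 676 on the WT1-negative arrays. Msln (mesothelin, a surface glycoprotein) read 10.82, 11.14 and 11.01 against 4.49, 4.63 and 4.22. Muc16, a mucin that binds mesothelin, read 10.16, 10.84 and 10.41 against 4.20, 4.19 and 4.17, at least 58.3-fold higher. Upk3b, a uroplakin widely used as a mesothelial marker, read 11.51, 12.48 and 11.74 against 5.95, 5.43 and 5.35. For these 3 genes the 2 groups were far apart and the WT1-intermediate arrays lay close together. Has1 (a hyaluronan synthase, at least 85.3-fold), Lrrn4 (at least 41.8-fold), Bnc1 (a basonuclin transcription factor, 3.95) and Rspo1 (a Wnt agonist, at least 3.63-fold) were also higher, and Podxl was the member not called (0.04, adjusted p = 0.861).

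Structural genes of epithelium followed. Of 8 keratins, 6 were higher and none lower, including Krt19 (at least 41.3-fold), Krt18 (4.29), Krt8 (4.23) and Krt7 (4.05), the keratins of simple epithelium. Of 15 junction genes, 11 were higher and 2 lower. The rises covered tight junctions (Cldn15 5.58, Cldn10 5.46, Tjp1 2.78) and desmosomes (Dsg2 4.79, Pkp2 2.54). Among cadherins the direction varied: P-cadherin (Cdh3, 4.14) and E-cadherin (Cdh1, 0.79) were higher, whereas N-cadherin (Cdh2, at least 1.32-fold) was lower, a call lost with median scaling (-0.16). Cldn5, the claudin of endothelium, was also lower (-1.87). Cdh11, the cadherin of fibroblasts, was higher by 0.52, a call that several alternative settings removed.

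Fibrillar and associated collagens were mostly higher in WT1-intermediate cells, with the exception of type I collagen alpha 1. Of 15 collagens outside the basement membrane, 9 were higher and 1 lower (median 1.96). Col3a1, the type III collagen of early scar, read 11.05, 11.22 and 11.06 against 7.13, 5.75 and 7.36 (4.36 ± 0.37, adjusted p = 2.78e-06). Col1a2 read 9.42, 10.02 and 10.26 against 7.67, 7.00 and 7.86 (2.39 ± 0.32, adjusted p = 8.23e-05). Col1a1 read 7.95, 9.44 and 9.23 against 9.79, 10.35 and 10.27 (-1.26 ± 0.37, adjusted p = 0.0119). Col3a1 and Col1a2 were therefore brighter in the injured liver and Col1a1 in culture, with no overlap of the groups in any of the 3, although the Col1a1 call was lost without the detection filter and at a 1.5-fold minimum. The 3 chains of type VI collagen rose together (Col6a1 3.52, Col6a2 3.32, Col6a3 2.38), as did Col16a1 (2.98) and Col14a1 (2.28).

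Matrix components that organise collagen and elastin rose with them. Among 8 small leucine-rich proteoglycans, which space collagen fibrils, 7 were higher and none lower: Fmod (4.04), Podn (at least 9.41-fold), Prelp (3.36), Ogn (2.93), Dcn (2.58), Lum (2.44) and Omd (at least 2.46-fold). Bgn was not called (0.31, adjusted p = 0.247). Of 15 elastic fibre genes, 11 were higher and 1 lower. Eln, the elastin precursor, read 9.77, 10.39 and 10.28 against 5.23, 6.07 and 5.46 (4.56 ± 0.27, adjusted p = 1.68e-07), so every WT1-intermediate array was brighter. Ltbp4, which tethers latent TGF-beta to elastic fibres, differed by 4.65 and Fbln1 by 3.76. Emilin2 was lower (-0.73). Among 20 basement membrane genes 9 were higher and 2 lower, with laminin chains Lamb2 (2.61) and Lama5 (1.94) up and Lama1 (at least 1.24-fold, a call lost with median scaling at -0.23) and Col4a2 (-0.66, a call lost in several settings) down.

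Matricellular and matrix turnover genes were called in both directions. Of 15 matricellular genes, 4 were higher, among them Tnxb (tenascin X, 4.92) and Cyr61 (2.45), and 3 were lower, namely Thbs1 (-1.20), Wisp1 (-1.55) and Ctgf (-0.76). These shares, 26.7% and 20%, compare with 25.9% and 32.0% over all genes. Ctgf, a TGF-beta-responsive fibrogenic factor, read 10.19, 10.40 and 11.18 against 11.00, 11.88 and 11.17, values that overlap between the groups, and its call was lost in several alternative settings. Fn1 (fibronectin) was not called by its brightest probe (-0.31, adjusted p = 0.441) and its other probes differed by 2.00 and -1.13. Of 16 metalloproteinases and inhibitors, 9 were higher and 4 lower. The gelatinases went opposite ways, with Mmp2 higher (3.19) and Mmp9 lower (-3.08). Adamts1 (3.32) and the inhibitor Timp3 (1.91) were higher, the collagenase Mmp13 (-1.33) and the stromelysin Mmp10 (-1.98) lower, and Timp1 was 0.93 without passing the test (adjusted p = 0.0628). Among 15 enzymes that process collagen, 7 were higher, led by Pcolce2 (4.11, an enhancer of procollagen cleavage), and 4 lower, led by the prolyl hydroxylase subunit P4ha2 (-0.98). Lox, the collagen cross-linking oxidase, was not called (-0.50, adjusted p = 0.0658).

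**Figure D3:**
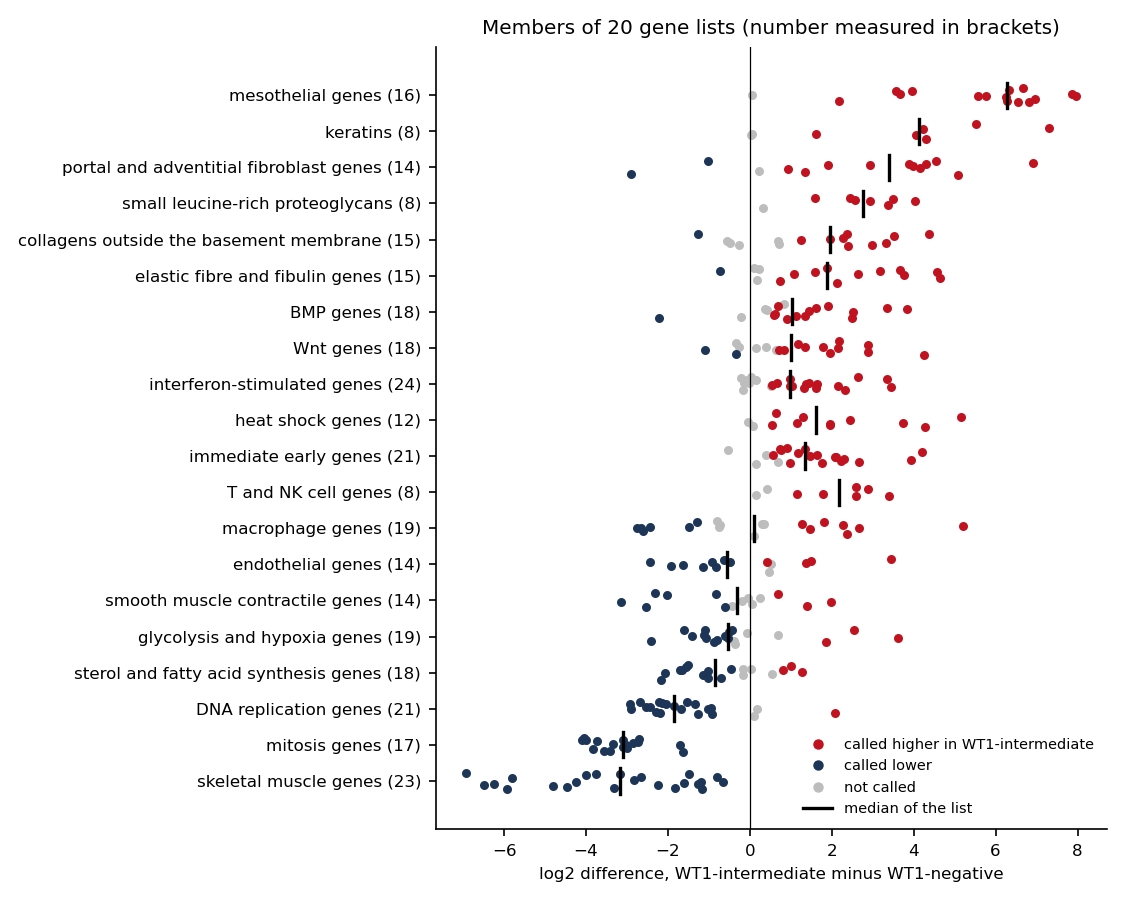
Log2 differences (WT1-intermediate minus WT1-negative, horizontal axis) of the tested members of 20 gene lists, 1 point per gene, with called genes distinguished from genes not called. Mesothelial genes lie furthest to the right (median 6.27), and the skeletal muscle (median -3.17) and mitosis (median -3.10) lists lie wholly on the left.

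Markers of the labelled cell type were compared between the groups, which does not test cell identity. Of 13 stellate cell markers tested (18 were on the array), 6 were higher and 3 lower (46.2% and 23.1%, beside 25.9% and 32.0% of all genes). Pdgfrb, the PDGF receptor of pericytes, read 6.13, 6.23 and 6.54 against 5.99, 5.89 and 6.59 and overlapped between the groups (adjusted p = 0.534). Des (desmin, an intermediate filament) read 6.29, 6.78 and 7.12 against 7.80, 8.42 and 8.00 (-1.34 ± 0.33, adjusted p = 0.00507), and was thus brighter on each cultured array. Both were detected on all 6 arrays. Colec11, a soluble lectin, was higher in WT1-intermediate cells by at least 6.38-fold, Ecm1 (1.78) and Cygb (cytoglobin, 1.65) were higher, and Ngfr (the p75 neurotrophin receptor, at least 1.42-fold) was lower. Among 18 genes of retinoid handling 7 were higher and 2 lower, with the retinaldehyde dehydrogenases Aldh1a1 (5.45) and Aldh1a2 (1.36) higher, and the retinoic acid-responsive Rarres1 lower (-2.76).

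Contractile genes of smooth muscle, the usual signature of a myofibroblast, were split. Acta2 (smooth muscle actin) read 10.23, 10.52 and 10.64 on the WT1-intermediate arrays and 13.04, 12.87 and 13.12 on the WT1-negative arrays, 5.84-fold lower (-2.55 ± 0.17, adjusted p = 5.17e-07) and without overlap. Also lower were Actg2 (-3.15), Myl9 (-2.31) and Tagln (transgelin, -2.02). Cald1 (caldesmon, at least 3.5-fold), Vcl (vinculin, 1.41) and Myh11 (0.69) went the other way, so that 3 of 14 members were higher and 6 lower. Of 14 genes of portal and adventitial fibroblasts, the connective tissue cells around vessels, 11 were higher and 2 lower (median 3.40). Pi16, a secreted peptidase inhibitor of adventitial cells, read 10.08, 9.94 and 11.15 against 5.23, 5.45 and 5.27. Clec3b (tetranectin, 3.87), Cd34 (4.15), Entpd2 (an ectonucleotidase of portal fibroblasts, 3.97) and Dpp4 (4.55) were higher too. Thy1 was lower (-1.01), and Gsn gave opposite calls on its 2 probes (-2.89 and 4.26).

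A muscle programme was high in the WT1-negative cultures. All 23 of 23 skeletal muscle genes that passed the detection filter (28 were on the array) were lower in WT1-intermediate cells (median -3.17, or -2.93 with undetected genes at their bound), beside 32.0% of all genes. Their summed intensity was 691 to 864 on WT1-intermediate arrays and 11275 to 15452 on WT1-negative arrays. Myog (myogenin, a transcription factor that commits myoblasts to fuse) read 4.36, 4.25 and 4.20, undetected, against 6.99, 7.01 and 7.27. Myod1, its upstream relative, differed by at least 1.42-fold, a call lost with median scaling (-0.38). The muscle acetylcholine receptor subunit Chrna1 (at least 7.64-fold), the embryonic myosin Myh3 (at least 10.8-fold) and the perinatal myosin Myh8 (at least 18.7-fold) were lower. All 3 cultures carried the signal. Many members passed the filter only through those 3 arrays, since leaving any one of them out left 9 members tested, of which 9 were lower.

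The promoters of the 2 sarcomeric actin genes are shown because both genes stood among the largest falls and their promoters hold the CArG box, the element bound by serum response factor. Each is the 250 bases before the RefSeq transcription start (GRCm38.p6), written along the gene's strand, with CArG boxes in capitals together with any CCAAT box. Acta1 lies at chr8:123894776-123895025, minus strand, and Actc1 at chr2:114052876-114053125, minus strand.
Acta1: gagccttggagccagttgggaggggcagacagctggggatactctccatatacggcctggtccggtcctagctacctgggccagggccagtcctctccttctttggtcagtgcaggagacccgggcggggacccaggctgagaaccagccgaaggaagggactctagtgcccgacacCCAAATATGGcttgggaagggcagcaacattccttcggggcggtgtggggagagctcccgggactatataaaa
Actc1: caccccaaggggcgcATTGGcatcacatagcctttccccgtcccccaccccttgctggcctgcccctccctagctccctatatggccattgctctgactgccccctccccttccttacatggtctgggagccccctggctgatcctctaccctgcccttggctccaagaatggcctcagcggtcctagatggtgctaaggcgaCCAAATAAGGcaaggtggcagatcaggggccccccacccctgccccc
The capitals include a CArG box from 73 to 64 bases before the Acta1 start and one from 47 to 38 bases before the Actc1 start. On both strands, a CArG box stood in 2 of 23 promoters of 20 matched skeletal muscle genes (8.70%) and in 1.47% of all 32851 RefSeq promoters. A match describes these letters and is not a measured binding site.

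H19 and Igf2 share an imprinted growth locus, H19 being a non-coding RNA and Igf2 a fetal insulin-like growth factor. H19 read 4.94, 5.20 and 6.29 on WT1-intermediate arrays and 10.34, 11.54 and 10.71 on WT1-negative arrays (-5.39 ± 0.42, adjusted p = 1.34e-06). Igf2 read 6.39, 5.90 and 6.25 against 10.65, 10.98 and 11.08 (-4.73 ± 0.21, adjusted p = 2.26e-08). H19 was 41.9-fold and Igf2 26.5-fold lower in WT1-intermediate cells, and neither overlapped between the groups. Of 11 imprinted genes tested 3 were higher and 5 lower. Peg3 (-1.75), Mest (-1.26) and Dlk1 (-1.001) fell with them, while Ndn was higher (1.17). In the rest of the IGF system Igf1 was lower (-1.34) and the binding proteins Igfbp5 (6.68) and Igfbp6 (3.56) were higher.

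Genes of cell division were uniformly lower in the WT1-intermediate cells. All 17 of 17 mitosis genes tested (25 were on the array) were lower (median -3.10), beside 32.0% of all genes. Their summed intensity was 582 to 752 on the WT1-intermediate arrays and 5753 to 7260 on the WT1-negative arrays. Cdc20, the activator of the anaphase-promoting complex, read 4.83, 5.24 and 5.10 against 9.17, 9.02 and 8.97 (-3.99 ± 0.24, adjusted p = 1.79e-07). Cdc2a (the array's name for Cdk1, the mitotic kinase) read 5.18, 5.42 and 5.37 against 9.07, 8.87 and 8.70. Birc5 (survivin, a chromosomal passenger protein) read 5.33, 5.25 and 5.78 against 9.77, 9.53 and 9.37. No WT1-intermediate array reached the lowest cultured array for any of these genes. Plk1 (-4.05), Prc1 (-3.84), Top2a (-3.73) and Ccnb1 (-3.41) behaved alike, and Tpx2, a spindle assembly factor, had the smallest fitted log2 difference (-1.63).

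The same held for DNA synthesis and most of the G1 machinery. Of 21 replication genes 18 were lower, including thymidine kinase Tk1 (-2.92), the ribonucleotide reductase subunit Rrm2 (-2.91) and the helicase subunit Mcm5 (-2.43), and 1 was higher, the sliding clamp gene Pcna (2.08, 1 probe). Of 18 G1 cyclins and CDK inhibitors 13 were lower. These included inhibitors as well as drivers of the cycle: E2f1 (-1.73), Cdkn2a (-1.68) and Cdkn1a (-1.12). Cdkn1c (p57), an inhibitor associated with quiescence, was the member that was higher (1.05).

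Promoters of Cdk1 and Cdc20 are shown as examples of genes that fell with the mitosis list and carry the cell cycle homology region (CHR, TTTGAA), a short element common in promoters active in G2 and M phase. Capitals mark CHR and CCAAT on either strand (CCAAT reads ATTGG on the other strand). Cdk1 lies at chr10:69352913-69353162, minus strand, and Cdc20 at chr4:118437344-118437593, minus strand (GRCm38.p6, 250 bases before the start).
Cdk1: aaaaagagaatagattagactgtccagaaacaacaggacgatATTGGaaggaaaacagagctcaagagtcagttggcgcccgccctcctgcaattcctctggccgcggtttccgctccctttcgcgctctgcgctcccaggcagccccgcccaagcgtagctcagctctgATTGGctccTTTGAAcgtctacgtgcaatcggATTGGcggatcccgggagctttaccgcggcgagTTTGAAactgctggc
Cdc20: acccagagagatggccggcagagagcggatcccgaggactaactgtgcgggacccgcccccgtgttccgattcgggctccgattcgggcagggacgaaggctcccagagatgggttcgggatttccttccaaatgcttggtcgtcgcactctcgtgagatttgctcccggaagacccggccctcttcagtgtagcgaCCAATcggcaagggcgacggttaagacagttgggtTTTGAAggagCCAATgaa
In Cdc20 the CHR lies 18 to 13 bases before the start. The CHR stood, on either strand, in 6 of 16 promoters of the mitosis genes that could be matched (37.5%) and in 15.99% of all RefSeq promoters, and CCAAT stood in 12 of 16 (75.0%) against 33.8%. The marked motifs do not overlap one another.

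**Figure D4:**
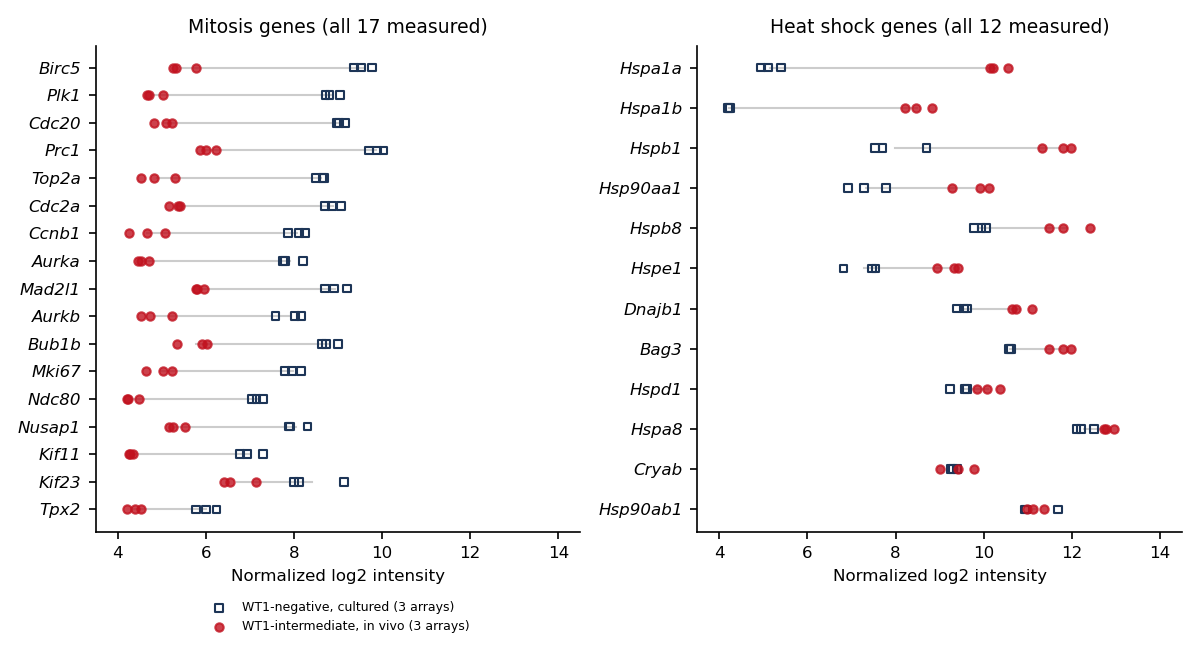
Log2 normalised intensity (horizontal axis) of 17 mitosis genes and 12 heat shock genes on each array, with WT1-intermediate and WT1-negative arrays distinguished by colour. All 17 mitosis genes were lower in the WT1-intermediate cells, whereas 10 of the 12 heat shock genes were higher and none was lower.

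Stress and immediate early genes were high in the WT1-intermediate cells. Of 12 heat shock genes 10 were higher and none lower (median 1.63). Hspa1a, the inducible Hsp70 chaperone, read 10.21, 10.56 and 10.15 against 4.94, 5.11 and 5.39 (5.16 ± 0.18, adjusted p = 3.28e-09). Hspa1b, a near-identical copy whose probe may bind the same transcripts, was at least 14.9-fold higher, so the pair is uncertain gene by gene. Hspb1, a small heat shock protein, read 11.33, 11.81 and 11.99 against 7.70, 8.70 and 7.53. Hsp90aa1 differed by 2.45, whereas its constitutive relative Hsp90ab1 was not called (-0.04). One of 3 Hspa8 probes ran against the brightest, and Hspd1 gave opposite calls on its probes (0.63 on the brightest and -1.62). Of 21 immediate early genes, which are transcribed within minutes of a stimulus, 17 were higher and none lower. Fos read 13.33, 13.23 and 13.15 against 11.01, 10.73 and 11.09 (2.30 ± 0.17, adjusted p = 1.13e-06). Klf4 (4.21), Fosb (3.93) and Atf3 (2.66) differed more. Both were sorted, the WT1-intermediate cells from freshly dissociated liver and the WT1-negative cells after culture on plastic, and handling cannot be told apart from the other differences between the groups.

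The Hspa1a and Hspb1 promoters are shown because the heat shock element, the pair of inverted repeats (GAANNTTC) bound by heat shock factors, is found in each. Capitals mark it and CCAAT. Hspa1a lies at chr17:34972157-34972406, minus strand, and Hspb1 at chr5:135887669-135887918, plus strand (GRCm38.p6, 250 bases before the start).
Hspa1a: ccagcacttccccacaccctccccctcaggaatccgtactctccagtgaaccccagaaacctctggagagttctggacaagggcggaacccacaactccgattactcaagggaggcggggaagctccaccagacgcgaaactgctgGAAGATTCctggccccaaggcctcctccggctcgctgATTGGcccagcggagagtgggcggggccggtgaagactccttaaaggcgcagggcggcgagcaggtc
Hspb1: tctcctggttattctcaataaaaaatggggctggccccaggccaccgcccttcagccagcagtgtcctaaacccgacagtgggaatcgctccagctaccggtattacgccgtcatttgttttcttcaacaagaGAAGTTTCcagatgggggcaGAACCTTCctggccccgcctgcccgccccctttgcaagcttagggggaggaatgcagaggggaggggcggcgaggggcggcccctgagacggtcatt
In Hspa1a the element lies 104 to 97 bases before the start. It stood in 5 of 10 promoters of the 8 heat shock genes that could be matched and in 6.69% of all RefSeq promoters.

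Among unfolded protein response genes the direction varied. Of 18 tested 10 were higher, including the chaperone Hspa5 (4.14) and its cofactor Dnajb9 (2.66), and 4 lower, including the pseudokinase Trib3 (-2.85). The metabolic lists below leaned to the WT1-negative cells, beside 32.0% lower and 25.9% higher over all genes. Of 19 glycolysis and hypoxia genes 12 were lower, such as Pdk1 (-2.41) and Gapdh (-1.60), and 3 were higher, namely Ndrg1 (3.61), Egln3 (2.54) and Car9 (1.86). Of 18 genes of sterol and fatty acid synthesis 11 were lower, including the cholesterol pathway enzymes Nsdhl (-2.16) and Sqle (-2.07). The proteasome list had 14 of 27 members lower and 3 higher (51.9% and 11.1%, median -0.48). Oxidative phosphorylation lay nearer the shares of all genes, with 15 of 34 lower and 7 higher (44.1% and 20.6%, median -0.37). Of 22 lysosomal genes 11 were lower and 6 higher, with Ctsl lower (-2.35) and Ctss, a cathepsin of antigen-presenting cells, higher (3.02).

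Growth factor pathways differed gene by gene. In the TGF-beta list 8 of 16 members were higher and 2 lower. The ligands divided, with Tgfb2 higher (2.31) and Tgfb1, the main fibrogenic isoform, lower (-1.08). Tgfb1 read 7.99, 7.75 and 7.27 against 8.52, 9.23 and 8.50, without overlap. The co-receptor Tgfbr3 (2.89) and the binding protein Ltbp1 (3.17) were higher, and the activin subunit Inhba was lower (-1.25). The median of this list, 0.42, turned to -0.22 with median scaling over every gene probe. Of 18 BMP genes 13 were higher and 1 lower. The ligands Gdf10 (3.83) and Bmp4 (2.49), the receptor Bmpr1a (3.35) and the antagonist Chrd (2.51) rose, and the antagonist Grem1, undetected in WT1-intermediate cells, was at least 4.04-fold lower.

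Wnt and Hedgehog genes that passed the detection filter were mostly higher, beside 25.9% of all genes. Of 18 Wnt genes tested (27 were on the array) 11 were higher and 2 lower. Per array, 15 to 17 were detected in WT1-intermediate and 9 to 11 in WT1-negative cells, so members could pass through the brighter group. The ligands Wnt2 (at least 6.58-fold), Wnt4 (1.79) and Wnt5a (1.96) and the inhibitors Sfrp2 (at least 15.6-fold) and Dkk3 (2.88) rose, and the agonist Rspo3 fell (-1.10). In the Hedgehog list 4 of 6 members tested (14 were on the array) were higher, among them the effector Gli2 (2.06), the repressor Gli3 (1.01) and the co-receptor Cdon (3.24). Notch ran the other way, with 6 of 9 members lower, including the nuclear effector Rbpj (-1.26), and 1 higher, the ligand Jag1 (at least 2.23-fold). Among lineage transcription factors 9 of 20 were higher, including Gata6 (3.23), Meis1 (2.04) and Tcf21 (a factor of embryonic septum transversum mesenchyme, 0.87), and 4 were lower, including Prrx1 (-1.51).

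Vasoactive genes, through which stellate cells regulate sinusoidal tone, also differed. Ednrb, the endothelin B receptor, read 8.11, 7.81 and 7.60 on WT1-intermediate arrays and 12.11, 12.37 and 12.64 on WT1-negative arrays (-4.53 ± 0.23, adjusted p = 5.75e-08), so it was 23.1-fold lower and did not overlap. Edn1, its ligand, was lower (-1.51), and Ednra was not called (-0.69, adjusted p = 0.0955). In the angiotensin pathway the converting enzyme Ace (at least 7.91-fold) and the receptor Agtr1a (3.24) were higher. Of 11 prostaglandin and lipoxygenase genes 7 were higher and 1 lower. Both cyclooxygenase genes rose, Ptgs1 by 3.19 on the log2 scale and Ptgs2, undetected in culture, by at least 6.2-fold, together with prostacyclin synthase Ptgis (3.03) and the degrading enzyme Hpgd (4.03). Alox5 was lower (-1.01). In the plasminogen and coagulation list Thbd (thrombomodulin, 3.75) and Plat (1.24) were higher, and F13a1, the transglutaminase factor XIII also made by macrophages, was lower (-3.72).

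Many genes of complement, antigen presentation and chemokines were higher in the injured liver cells, while complement and chemokine genes were also lower in many cases. Of 15 complement genes 8 were higher and 6 lower (53.3% and 40%, beside 25.9% and 32.0% of all genes). C3, the central component, read 13.42, 13.49 and 13.58 against 8.35, 7.04 and 8.42 (5.56 ± 0.30, adjusted p = 9.82e-08). Cfb (6.87), C2 (4.66) and C4b (5.05), which build the convertases, and the regulators Cd55 (4.90) and Serping1 (4.37) were higher. The 3 chains of C1q, products mainly of macrophages, were lower (C1qa -2.60, C1qb -2.40, C1qc -2.63), as was the anaphylatoxin receptor C5ar1 (-2.66).

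Of 9 class II MHC genes 7 were higher and none lower, a count that was 4 without WT1-intermediate replicate 1 or 8, without WT1-negative replicate 3 or 14, without the filter or at a 1.5-fold minimum, and 2 when detection on all 6 arrays was required. H2-Aa read 11.44, 11.40 and 10.97 against 4.25, 4.21 and 4.35, undetected in culture, and H2-Ab1 (5.77) and H2-Eb1 (6.23) were higher too. Among 24 interferon-stimulated genes 15 were higher and none lower, including the guanylate-binding protein Gbp2 (3.45), Oasl2 (3.35) and the transcription factor Irf7 (2.63). Class I MHC gave 6 higher (H2-K1 3.19) and 3 lower of 13 (46.2% and 23.1%, beside 25.9% and 32.0% of all genes). Its median, 0.23, turned to -0.21 with median scaling over every gene probe.

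Of 19 chemokines 10 were higher and 6 lower (52.6% and 31.6%, beside 25.9% and 32.0% of all genes). Their summed intensity overlapped, at 24428 to 33604 on WT1-intermediate arrays and 30027 to 35493 on WT1-negative arrays. Ccl11 (eotaxin) read 9.02, 9.69 and 9.49 against 5.00, 4.92 and 5.48, and Cxcl13, which draws B cells, was at least 30.0-fold higher. The interferon-inducible Cxcl9 (3.03) and Cxcl10 (2.40) and the T cell product Ccl5 (5.47) were higher. Cxcl12, the stromal ligand of CXCR4, was lower (-1.98), together with the macrophage chemokines Ccl3 (-2.85) and Ccl6 (-2.84). In the interleukin list Il33 (4.29), Il6 (4.26) and Il1b (3.56) were higher and Il1a lower (-2.42), with 10 of 25 members higher and 6 lower (40% and 24%).

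Macrophage genes were measured in both groups. Of 19 tested 7 were higher and 6 lower in WT1-intermediate cells (36.8% and 31.6%, beside 25.9% and 32.0% of all genes), their summed intensity was 16402 to 28171 on WT1-intermediate arrays and 39398 to 40608 on WT1-negative arrays, and 18 to 19 and 15 to 16 members respectively were detected per array. Cd68, a lysosomal glycoprotein of macrophages, read 10.72, 9.84 and 9.18 against 12.57, 12.75 and 12.69 (-2.75 ± 0.34, adjusted p = 4.31e-05). Trem2, a lipid-sensing receptor, was lower by 2.65 and the integrin chain Itgam by 2.43 on the log2 scale. Emr1, which encodes F4/80, read 10.41, 9.54 and 9.90 against 9.93, 9.13 and 9.76, overlapping between the groups (adjusted p = 0.287). Clec4f and Timd4, markers of liver-resident Kupffer cells, were detected on all 3 WT1-intermediate arrays and on no WT1-negative array (at least 4.99-fold and at least 3.22-fold higher). Marco (2.37), Vsig4 (1.46) and the monocyte gene Ly6c1 (5.21) were higher as well, Ly6c1 being also an endothelial gene. Outside that list, Mrc1, the mannose receptor of macrophages and liver endothelium, was 24.2-fold lower, and the macrophage gene Chi3l3 was 43.3-fold higher. The part of macrophages in the C1q, Fcrls (or Msr2), lysosomal and chemokine differences was not tested.

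**Figure D5:**
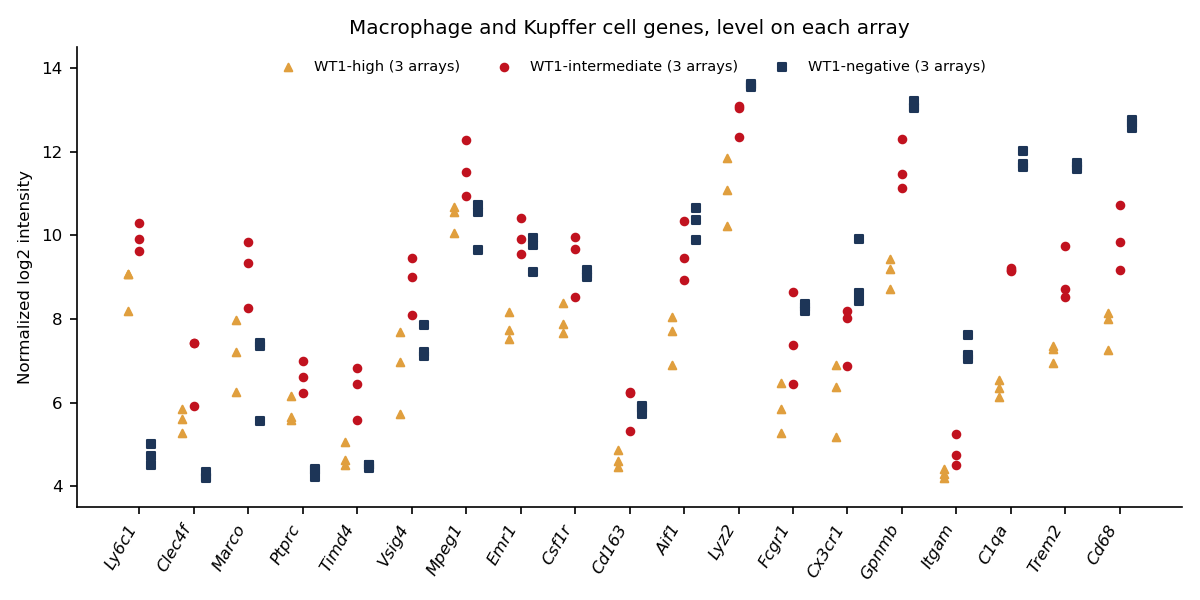
Log2 normalised intensity (vertical axis) of 19 macrophage genes on the arrays of the 3 groups, with 1 point per array. Genes such as Cd68 are brightest on the WT1-negative arrays (12.57 to 12.75), while Clec4f and Timd4 are detected on WT1-intermediate and not on WT1-negative arrays.

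Genes of other cell types were detected as well. Of 14 endothelial genes 4 were higher, including Clec4g of the liver sinusoid (3.45), and 8 lower, including Vwf (-1.92), Emcn (-2.43) and Cdh5 (-0.82), while the summed intensities were 2506 to 2798 and 2039 to 2831. Of 8 T and NK cell genes tested (11 were on the array) 6 were higher, beside 25.9% of all genes, with sums of 606 to 1087 against 174 to 181. Per array, 7 were detected in WT1-intermediate and 1 to 2 in WT1-negative cells, so members could pass through the brighter group. Among those higher were the T cell receptor chains Cd3g (2.88), Cd3e (at least 4.77-fold) and Cd3d (at least 5.08-fold) and the cytotoxic granule gene Nkg7 (at least 8.7-fold). Of 7 dendritic cell genes on the array 3 passed the filter, with 3 detected on each WT1-intermediate array and 1 on each WT1-negative array. Of those 3, 2 were higher, among them Siglech, a plasmacytoid dendritic cell gene (at least 19.8-fold). Of 8 neutrophil genes 5 were higher and 1 lower, with S100a9 at 9.26, 9.53 and 9.11 against 6.65, 6.22 and 5.98. Hepatocyte genes were higher in 7 of 11 cases (Hp 3.67, Ttr 3.63), yet their sums, 4547 to 6931 and 3752 to 5076, overlapped.

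Some genes varied widely within a group. Median SD over genes was 0.227 among WT1-intermediate arrays and 0.158 among WT1-negative arrays, and 87 and 45 genes exceeded an SD of 1. On WT1-intermediate replicate 30 pancreatic genes were brightest: Amy2-2 (amylase) read 6.86, 8.24 and 10.87, and Ela2a (elastase) read 4.30, 5.55 and 8.19. Replicate 1 was brightest for several macrophage genes, Chi3l3 reading 11.70, 9.98 and 9.27. For other macrophage genes it was the dimmest, with Marco at 8.27, 9.34 and 9.84 and Clec4f at 5.92, 7.43 and 7.42. Among the cultures replicate 11 stood apart, with Havcr1, a kidney injury gene, at 4.44, 9.35 and 4.80 and Ly6a (Sca-1) at 8.60, 11.38 and 8.37.

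Against the WT1-high cells of the same injured livers, the WT1-intermediate cells differed in fewer genes. Of the 14659 genes, 421 were higher (2.87%) and 141 lower (0.962%), and array distances were 0.434 to 0.646. That contrast left out the shared animals, and with the replicate number as a random block (it pairs 2 of the 3 arrays a group, chosen after seeing the data) 798 genes were higher and 503 lower. Of the 16 mesothelial genes 1 was called, Dmkn (log2 difference from WT1-high -0.92). Pi16 (3.27), Dpt (1.96), Gdf10 (3.40), Pcolce2 (3.45), Inmt (3.63) and Ccl11 (4.38) were higher by these log2 values in WT1-intermediate than in WT1-high cells, as well as higher than in WT1-negative cells. C1qa (2.83), Trem2 (1.81), Cd68 (2.12) and Gpnmb (2.51) were higher than in WT1-high cells and lower than in WT1-negative cells. Macrophage sums were 4882 to 8242 in WT1-high cells, below both other groups. Acta2 (-0.76) and Des (-1.40) were lower in WT1-intermediate than in WT1-high cells and also lower than in the cultures. The WT1-intermediate arrays are shared by both comparisons, so these values are not independent of each other.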

How the data were processed

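RNA of sorted cells was amplified, labelled with biotin and hybridised to Illumina MouseWG-6 v2.0 beadchips, 1 array per sample. The authors deposited unnormalised summary intensities exported from BeadStudio, with a detection p-value per probe (the share of negative control probes brighter than the probe). In vivo and in vitro arrays stand in separate tables, and a joined table of the same intensities was identical to them. Another 91 columns of per-sample bead statistics were not used.

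Intensities were background corrected on negative controls, quantile normalised over all 9 arrays and log2 transformed with neqc of limma 3.58.1 in R 4.3.3 (offset 16, 936 negative and 38 other control probes), which matches the steps the authors' methods give. Of 45281 probes, 20573 detected (p below 0.05) on at least 3 of 9 arrays were kept. A model with 1 term per group was fitted to all 9 arrays, so the spread is shared by the 3 groups (6 residual and 5.19 prior degrees of freedom), and moderated by eBayes. P-values were adjusted by Benjamini-Hochberg over all probes kept, and an adjusted p below 0.05 was a call. A gene is its brightest kept probe. Of 4177 genes with 2 or more kept probes, 360 had probes called in both directions. The text names only some of these, and every list count carries this limit. Array number limits the precision, since 3 arrays stand in each group, from separate animals or cell isolations per the methods.

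The column for the third WT1-intermediate array carries the number 29, which its label does not. It was taken as replicate 30 because it is the 1 GFP low array left. Its detection p-values were recomputed from the negative controls, a rule that gave the deposited detection call for every probe of the other 8 arrays. Group members came from labels alone. The genes named were the 10 largest rises and falls that were called, did not overlap and were detected on all arrays of the brighter group, key members of 59 lists, and each list's largest called rise and fall, with others named beside their list's count. Mrc1, the immunoglobulin genes and the genes that varied widely within a group were named outside this rule. Members and lists were chosen with earlier results of these data known. Of 1032 list entries, 995 matched the array's symbols, 13 an older symbol and 1 a gene number, 23 were unmatched, and 838 passed the filter. Promoters (250 bases before the start) came from RefSeq, GRCm38.p6, matched by symbol. The fit was tested on simulated data. Alternatives were no background correction, an offset of 50, median scaling, cyclic loess, no filter, detection on all 6 arrays, the 2 groups alone, array weights, a 1.5-fold minimum (treat), a random replicate block and leaving out each array.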

Additional observations from a re-analysis of the deposited data

Results flagged for a closer look

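Among the named genes, 44 differed between the WT1-intermediate and WT1-high cells by limma's contrast of those groups (adjusted p below 0.05), so that their differences from the shared WT1-negative arrays were unequal. Each value in parentheses is the log2 difference, WT1-intermediate minus WT1-high, over 3 arrays a group. The contrast did not pair arrays of the same animals, and with the replicate number as a random block all 44 stayed called in the same direction. That fit called more genes (798 higher and 503 lower, in place of 421 and 141), so keeping the 44 adds no separate support. No explanation of these differences was tested.

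Lower in WT1-intermediate cells were Rarres1 (-2.54), Fgf1 (-2.08), Des (-1.40), Itgb4 (-1.06), Dmkn (-0.92), Acta2 (-0.76) and Ptgis (-0.76), which span retinoid response, contractile and epithelial genes. Among genes of fibroblasts, collagen processing and BMP signalling, Ccl11 (4.38), Inmt (3.63), Pcolce2 (3.45), Gdf10 (3.40), Pi16 (3.27), Itga11 (2.37), Dpt (1.96), Tcf21 (1.62), Tnxb (1.02), Nid1 (1.03), Has2 (0.99) and Emilin2 (0.89) were higher. Genes known mainly from macrophages were also higher: C1qa (2.83), Gpnmb (2.51), Emr1 (2.14), Cd68 (2.12), Spp1 (2.03), Trem2 (1.81), Lyz2 (1.78), Ctss (1.74), Csf1r (1.41), Fcrls (1.10), Ly6c1 (1.17), Ctsd (0.97), Alox5 (1.02) and Il1a (1.01). The macrophage list's summed intensity was 16402 to 28171 on WT1-intermediate and 4882 to 8242 on WT1-high arrays, and its part in these values was not tested.

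The other genes higher in WT1-intermediate cells were Mmp13 (2.06), Lpl (1.80), Pparg (1.72), Pdgfrb (1.28), Ace (1.22), Igf1 (1.20), Hgf (1.16), Vegfa (1.08), Ednrb (0.95), Stab2 (0.93) and Mcm5 (0.71). Vegfa gave opposite calls on its 2 probes against WT1-negative cells. Ednrb, Igf1, Mmp13 and Mcm5 were among the genes higher than in WT1-high cells and lower than in WT1-negative cells.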

How the results depend on the processing

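The main counts of 11935 probes called, 5029 higher, 6906 lower and 5687 at 2-fold or more moved by over 1.5 times in these settings. Without background correction 2177 probes, and with an offset of 50 3418 probes, passed 2-fold. Requiring detection on all 6 arrays gave 7949 calls with 3077 higher, as fewer probes were tested. A 1.5-fold minimum (treat) gave 4919 calls, 2496 higher and 2423 lower. Median scaling over every gene probe, chosen after seeing the data, gave 2545 higher and made 76.9% of calls lower in place of 57.9%. That share was 51.6% with median scaling and 48.8% with cyclic loess. Leaving out 1 array gave 9799 to 12048 calls, 4341 to 5118 higher, 5458 to 6930 lower, 5383 to 6087 at 2-fold or more, and 55.7% to 57.9% lower.

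No paired analysis was possible because the WT1-intermediate and WT1-negative arrays share no replicate number. With a random replicate block (correlation 0.378) 11950 probes were called, 5043 higher, 6907 lower and 5693 at 2-fold or more, and 1 named gene lost its call.

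Of the 327 genes named by rule, 261 were called, and 184 of those kept their direction and call in each setting run. The 1.5-fold minimum removed 66 of these calls, median scaling over every gene probe 32 and median scaling 13. Values reversed for Cryab (-0.64), Hoxa5 (-0.15), Lamc1 (-0.082), Mmp14 (-0.016) and Vegfa (-0.0037), each with median scaling over every gene probe. The cause was not tested. Levels near background, about 4.50 to 4.63 on the log2 scale, give bounds in place of folds.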

Other observations

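Hox genes, which record position along the body axis, were called in few cases, with 2 of 17 higher and 2 lower in WT1-intermediate cells (11.8% each). Over all genes 25.9% were higher and 32.0% lower. Integrins gave 5 higher and 3 lower of 15 (33.3% and 20%). In the PDGF, FGF and VEGF list 8 of 17 members were higher and 3 lower (47.1% and 17.6%). Among antioxidant genes 9 of 22 were higher (40.9%), led by thioredoxin (Txn1, 2.70), and 6 lower (27.3%), led by the peroxiredoxin Prdx4 (-1.51). The medians of these 4 lists (Hox -0.18, integrins 0.20, growth factors 0.38 and antioxidants 0.19) changed sign with a scaling.

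Cholangiocyte genes summed to 1553 to 2362 on WT1-intermediate arrays and 196 to 282 on WT1-negative arrays, with 2 of 4 higher. Keratins that bile duct cells share with mesothelium are among them. B and plasma cell genes gave 1 higher and 1 lower of 4 (25% each, beside 25.9% and 32.0% of all genes). The fall was Blnk, an adaptor also used by macrophages (-2.94). Some immunoglobulin genes outside that list varied widely within the WT1-intermediate group. Of these, Igh-VJ558 (5.17) and Ighg (at least 17.9-fold) were higher than in WT1-negative cells, and Igk-V33 was not called (1.26, adjusted p = 0.149). Erythroid and platelet genes gave 1 higher of 3. Hyaluronan genes gave 2 higher and 2 lower of 8 (25% each, beside 25.9% and 32.0% of all genes). Lipid uptake and storage genes gave 1 higher and 2 lower of 9 (11.1% and 22.2%). Of the 4 Y-linked genes tested, listed to check the labels, 3 to 4 were detected on each WT1-intermediate array and 4 on each WT1-negative array, and Xist did not pass the detection filter. Their summed intensity was 1850 to 1987 on WT1-intermediate arrays and 779.6 to 929 on WT1-negative arrays, and 2 of 4 were higher in WT1-intermediate cells, none with median scaling over every gene probe.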
